A study of Homo sapiens with 12 samples.

Results

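The aminoacyl-tRNA synthetases are the enzymes that join each amino acid to its tRNA, and their transcripts were followed here in acute myeloid leukaemia cells treated with selinexor. The genes were chosen by symbol, with earlier results of these data known: 20 symbols of cytosolic enzymes and 16 of mitochondrial enzymes, the latter carrying the suffix 2. All 36 were found among the 17099 gene symbols listed for OCI-AML2 cells and the 16820 listed for MOLM-13 cells, and all 36 passed the filter on low counts in both lines. The symbols are the older ones (AARS, GARS), which current nomenclature writes with the suffix 1.

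OCI-AML2 and MOLM-13 are established human acute myeloid leukaemia cell lines. Culture lasted 36 h with the DMSO vehicle or with selinexor, an inhibitor of the nuclear export receptor XPO1, at 200 nM in OCI-AML2 and 75 nM in MOLM-13, with no genetic change named for either. Because the doses differed, an effect of line and one of dose cannot be told apart. There were 4 groups of 3 libraries of polyadenylated RNA from whole cells, which the submitters describe as independent biological replicates.

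In the cytosol, 20 genes cover the amino acids of translation: FARSA and FARSB encode the subunits of the phenylalanine enzyme, and EPRS is a fused enzyme for glutamate and proline. Several of the cytosolic enzymes are held together in the multisynthetase complex by scaffold proteins, while the others work outside it. Mitochondria import a separate set of nuclear-encoded enzymes for their own translation, and GARS and KARS also give rise to the mitochondrial enzymes for glycine and lysine. Many cytosolic synthetase genes are known targets of the transcription factor ATF4, which acts when amino acids or charged tRNAs are short, by binding C/EBP-ATF response elements.

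Total counts ranged from 8114892 to 11769061 per library, and expression is given as CPM, a gene's share of the counts of its library, scaled by TMM within a line and printed as mean ± SD (n = 3) where libraries are not listed. Changes are log2 fold changes, selinexor over vehicle, with a standard error (SE) after the ± sign. This SE was derived from the test, as the absolute change divided by the square root of edgeR's F statistic. Counts of replicate libraries differed by more than sampling noise in each group, with a chi-square per degree of freedom of 1.61 to 5.56. The labelled cell type was checked against markers. All 6 myeloid markers (CD33, SPI1, MPO, LYZ, PTPRC, CEBPA) had counts in every library. CD3E, MS4A1, HBB and EPCAM of lymphoid, erythroid and epithelial cells were not among the symbols listed for either line, so no count was available for them. The summed level of the myeloid markers was 2848 to 3052 CPM with vehicle and 11079.8 to 11351 CPM with selinexor in OCI-AML2, while in MOLM-13 it was 1074 to 1088 against 2599 to 2636 CPM. In OCI-AML2 most of this difference was LYZ, with means of 1735 CPM with vehicle and 9580.1 CPM with selinexor, while CD33 had means of 60.7 and 60.6 CPM and MPO of 11.6 and 8.03 CPM. In MOLM-13, LYZ had means of 116 and 958 CPM and CEBPA of 603 and 1180.0 CPM. Of the 9 markers of other cells, 3 were listed for OCI-AML2 and 4 for MOLM-13. The sum of those listed was 51.9 to 61.3 against 89.3 to 92.5 CPM in OCI-AML2 and 8.79 to 10.1 against 15.5 to 19.4 CPM in MOLM-13, nearly all of it PECAM1. The part of this shift in the synthetase values was not tested. In bulk RNA, fewer cells of a type and less RNA per cell cannot be told apart.

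Transcripts of cytosolic synthetases were mostly lower with selinexor in both lines, and those of mitochondrial synthetases were mixed. Of the 20 cytosolic genes, 15 fell and 3 (DARS, LARS, QARS) rose in OCI-AML2, where 63.1% of all tested genes were called (31.8% lower and 31.3% higher). In MOLM-13, 17 fell and 2 (LARS, QARS) rose, where 63.6% of all genes were called (31.8% in each direction). The median log2 fold change of the cytosolic genes was -0.32 in OCI-AML2 and -0.28 in MOLM-13, against -0.0016 and 0.0091 over all genes. Of the 16 mitochondrial genes, 7 fell and 2 (IARS2, PARS2) rose in OCI-AML2, and 7 fell and 2 (PARS2, TARS2) rose in MOLM-13. Their medians were -0.13 and -0.061, and upper quartile scaling turned that of MOLM-13 to 0.0090. The same scaling moved the MOLM-13 median over all genes from 0.0091 to 0.079, so the mitochondrial median still lay below that of all genes. Genes were called at a Benjamini-Hochberg adjusted p below 0.05, taken over all genes of a line in edgeR's quasi-likelihood test of 3 libraries against 3, and every edgeR p printed is adjusted in this way.

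Most calls were shared by the lines. Of the 20 cytosolic genes, 15 fell in both lines and LARS and QARS rose in both, while DARS, RARS and SARS were called in 1 line each. Among the mitochondrial genes, VARS2, LARS2, YARS2, EARS2 and AARS2 fell in both lines and PARS2 rose in both. TARS2 and IARS2 had opposite calls in the 2 lines, and FARS2, SARS2, HARS2, WARS2, CARS2 and NARS2 were not called in either. For scale, 2649 of the 11202 genes tested in both lines fell in both and 2356 rose in both. The 3 selinexor libraries lay wholly below the 3 vehicle libraries for 17 cytosolic genes in each line (33.3% of all genes in OCI-AML2 and 32.8% in MOLM-13 did so), and for 7 mitochondrial genes in each line.

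**Figure D1:**
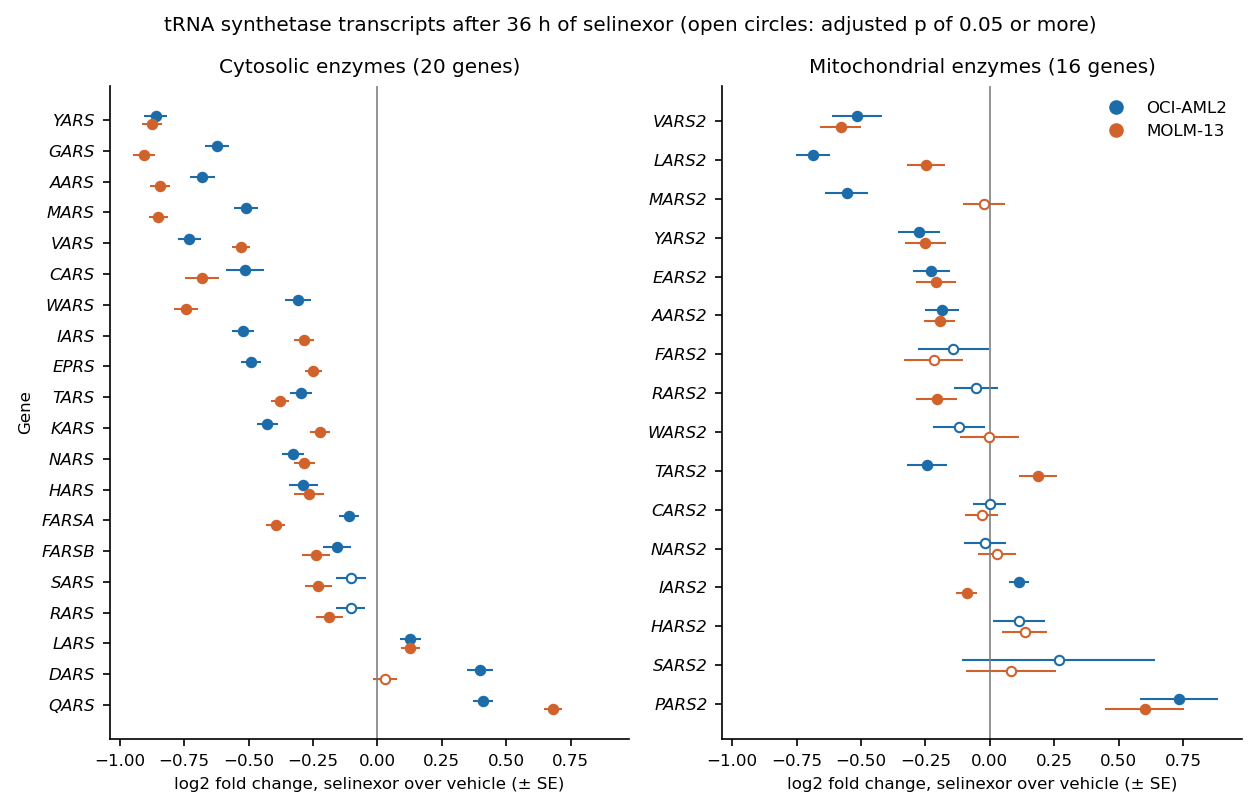
Log2 fold change (selinexor over vehicle, ± SE, 3 libraries against 3) of each synthetase transcript on the horizontal axis, by gene, in OCI-AML2 (blue) and MOLM-13 (orange), with open circles where the adjusted p was 0.05 or more. Most cytosolic genes lie left of 0 in both lines, with QARS at the far right at 0.41 and 0.68, while the mitochondrial genes lie on both sides.

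The 3 largest mean falls were those of YARS, GARS and AARS, which work outside the multisynthetase complex. YARS, the tyrosine enzyme (GRCh38 chromosome 1, 32775237 to 32818153, minus strand), was at 224, 230.0 and 234 CPM in the OCI-AML2 vehicle libraries and at 119.5, 129 and 129.9 CPM with selinexor. In MOLM-13 it was at 311, 322 and 328 CPM with vehicle and at 172, 169 and 183 CPM with selinexor. The groups lay far apart in both lines, and YARS had the largest mean change of the 36 genes, with log2 fold changes of -0.86 ± 0.046 and -0.88 ± 0.040 (edgeR adjusted p = 2.3e-20 and 1.4e-37). GARS, the glycine enzyme (chromosome 7, 30594681 to 30634033, plus strand), was at 185, 196 and 184 CPM with vehicle and at 125, 118 and 124 CPM with selinexor in OCI-AML2. In MOLM-13, GARS was at 287, 279 and 268 CPM with vehicle and at 146, 151 and 148 CPM with selinexor. With no overlap in either line, it changed by -0.62 ± 0.048 in OCI-AML2 and by -0.91 ± 0.042 in MOLM-13, the lowest value of the 36 genes in that line (edgeR adjusted p = 3.2e-15 and 2.1e-37).

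AARS, the alanine enzyme (chromosome 16, 70252295 to 70289543, minus strand), was at 197, 192 and 189 CPM with vehicle and at 128, 120.0 and 113 CPM with selinexor in OCI-AML2. The MOLM-13 libraries held 379, 409.9 and 397 CPM with vehicle and 222, 227 and 212 CPM with selinexor. Groups were separate in both lines, at log2 fold changes of -0.68 ± 0.049 and -0.84 ± 0.038 (edgeR adjusted p = 4.2e-16 and 3.6e-38). VARS, the valine enzyme (chromosome 6, 31777518 to 31795953, minus strand), which associates with elongation factor 1, was at 264, 288 and 267 CPM with vehicle and at 169, 164 and 161 CPM with selinexor in OCI-AML2. In MOLM-13 its values were 542, 572 and 555 CPM and 383, 394 and 379.9 CPM, and it changed by -0.73 ± 0.044 and -0.53 ± 0.034 in the 2 lines without overlap (edgeR adjusted p = 1.2e-18 and 1.6e-26). CARS is the cysteine enzyme (chromosome 11, 3000922 to 3057613, minus strand). It was at 55.96, 62.2 and 63.7 CPM with vehicle and at 40.6, 46.2 and 40.8 CPM with selinexor in OCI-AML2, and at 87.8, 80.1 and 78.001 CPM and 53.98, 47.2 and 52.2 CPM in MOLM-13. Its lowest vehicle library still lay above its highest selinexor library in each line, and the changes were -0.51 ± 0.073 and -0.68 ± 0.066 (edgeR adjusted p = 5.1e-08 and 3.3e-16).

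The other 7 cytosolic genes outside the complex changed less in OCI-AML2. WARS, the tryptophan enzyme, is known as a gene induced by interferon gamma, and it went from 159.7 ± 8.24 to 129 ± 3.23 CPM (OCI-AML2) and 176 ± 1.76 to 105 ± 0.244 CPM (MOLM-13), changes of -0.31 ± 0.049 and -0.74 ± 0.047. TARS (threonine), NARS (asparagine) and HARS (histidine) fell by between 0.26 and 0.38 on the log2 scale in both lines. FARSA and FARSB, which encode the 2 subunits of 1 enzyme, changed by -0.11 ± 0.040 and -0.16 ± 0.055 in OCI-AML2 and by -0.39 ± 0.036 and -0.24 ± 0.054 in MOLM-13. SARS, the serine enzyme, was at -0.10 ± 0.057 in OCI-AML2 (edgeR adjusted p = 0.118) and fell in MOLM-13 (-0.23 ± 0.052). In all, 11 of these 12 genes fell in OCI-AML2 and 12 of 12 in MOLM-13, with medians of -0.32 and -0.46, where 31.8% of all genes fell in each line. The OCI-AML2 calls of FARSA and FARSB were not stable: FARSA had an adjusted p of 0.0609 without selinexor library 2 and 0.0907 without selinexor library 3, and FARSB 0.0711 and 0.0509 without selinexor libraries 1 and 2. Both also missed the threshold in a joint fit of the 12 libraries (0.133 and 0.0629).

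Promoter sequences were examined for the letters of the C/EBP-ATF response element, because many cytosolic genes moved together and ATF4 is known to act through it. The letters TGATGNAA, on either strand, were searched from 250 bases before to 50 after each start site in RefSeq promoters of GRCh38.p14. They occurred in 3.62% of 35116 promoters. Promoters were found for 30 of the 36 genes (39 promoters), and DARS, LARS, VARS, YARS, AARS2 and VARS2 were not matched. The letters occurred in 7 of 21 promoters of cytosolic genes (33.3%) and in 1 of 18 of mitochondrial genes (5.56%). The 8 matches are shown with 11 bases on either side, along the strand of the gene and with the matching letters in capitals.
AARS (chr16:70289675-70289704, minus strand, 187 bases before the start): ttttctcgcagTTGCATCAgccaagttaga
CARS (chr11:3057407-3057436, minus strand, 2 bases before the start): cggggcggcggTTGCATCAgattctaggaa
GARS (chr7:30594834-30594863, plus strand, 33 bases before the start): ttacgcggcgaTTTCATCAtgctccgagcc
IARS (chr9:92293692-92293721, minus strand, 13 bases before the start): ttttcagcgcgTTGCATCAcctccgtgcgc
MARS (chr12:57488053-57488082, plus strand, 4 bases before the start): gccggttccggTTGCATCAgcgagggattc
NARS (chr18:57621804-57621833, minus strand, 14 bases after the start): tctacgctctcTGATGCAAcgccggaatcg
TARS (chr5:33440956-33440985, plus strand, 2 bases after the start): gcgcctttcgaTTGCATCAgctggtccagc
YARS2 (chr12:32756076-32756105, minus strand, 197 bases before the start): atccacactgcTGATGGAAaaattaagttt
Distances are from the first base of the match, and a gene with several start sites is shown at the one whose promoter holds the letters.

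All 7 cytosolic genes with the letters (AARS, CARS, GARS, IARS, MARS, NARS, TARS) fell in both lines. Their median log2 fold change was -0.51 in OCI-AML2, within -0.68 to -0.30, and -0.68 in MOLM-13, within -0.91 to -0.28. Of the 9 cytosolic genes whose promoters lack the letters in this window (EPRS, FARSA, FARSB, HARS, KARS, QARS, RARS, SARS, WARS), 6 fell and 1 rose in OCI-AML2 and 8 fell and 1 rose in MOLM-13, with medians of -0.16 and -0.24, beside 31.8% of all genes lower in each line. The lists overlap in range, since WARS without the letters changed by -0.74 in MOLM-13 and NARS with them by -0.28. The 4 cytosolic genes for which no promoter was found (DARS, LARS, VARS, YARS) are in neither list. Their medians were -0.30 in OCI-AML2, within -0.86 to 0.40, and -0.25 in MOLM-13, within -0.88 to 0.13. YARS2, the 1 mitochondrial gene with a match, changed by -0.27 and -0.25. A match is a description of letters, and whether any factor bound there was not measured. ATF4 itself went from 525 ± 19.99 to 341 ± 7.06 CPM (OCI-AML2) and 664 ± 28.2 to 491 ± 22.9 CPM (MOLM-13), changes of -0.62 ± 0.040 and -0.43 ± 0.034 (edgeR adjusted p = 9.7e-18 and 6.7e-21).

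Within the multisynthetase complex both directions were found. Of its 8 enzymes, 4 fell (EPRS, IARS, KARS, MARS), 3 rose (DARS, LARS, QARS) and RARS was not called in OCI-AML2, while 5 fell (the same 4 with RARS), 2 rose (LARS, QARS) and DARS was not called in MOLM-13. Over all genes 31.8% fell and 31.3% rose in OCI-AML2, and 31.8% did each in MOLM-13, so that the share of the 8 that rose was near the background. The medians were -0.27 and -0.20. MARS, the methionine enzyme (chromosome 12, 57475445 to 57517569, plus strand), was at 195, 207 and 191 CPM with vehicle and 144, 140.3 and 133 CPM with selinexor in OCI-AML2. In MOLM-13 it was at 421, 433 and 415 CPM with vehicle and 233, 237 and 234 CPM with selinexor. Groups did not overlap, and MARS changed by -0.51 ± 0.047 and -0.85 ± 0.037 (edgeR adjusted p = 1.1e-12 and 1.1e-39). MARS shares 355 exonic bases with DDIT3 and 519 with ARHGAP9 on the opposite strand, and these libraries do not keep the strand. DDIT3 was at a mean of 16.3 CPM with vehicle in OCI-AML2 and 27.6 CPM in MOLM-13. The part of DDIT3 and ARHGAP9 reads in the MARS counts was not tested.

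QARS, the glutamine enzyme (chromosome 3, 49095932 to 49105135, minus strand), rose in both lines, as did LARS. These and DARS are named because they rose in 1 line or both, a choice made after their values were seen. QARS was at 303, 316 and 303 CPM with vehicle and at 404, 403 and 418 CPM with selinexor in OCI-AML2. In MOLM-13 the values were 330.3, 332 and 314 CPM with vehicle and 507, 521 and 538 CPM with selinexor. Every selinexor library lay above every vehicle library, at changes of 0.41 ± 0.039 and 0.68 ± 0.035 (edgeR adjusted p = 3.0e-12 and 1.4e-33). LARS, the leucine enzyme, rose by a smaller amount that was nearly the same in both lines, 0.13 ± 0.042 and 0.13 ± 0.037, and its OCI-AML2 call was lost without vehicle library 1 (adjusted p = 0.0833). DARS, the aspartate enzyme, was at 110.0, 106 and 109 CPM with vehicle and 148, 139.9 and 139.7 CPM with selinexor in OCI-AML2, a rise of 0.40 ± 0.050. In MOLM-13 the DARS groups overlapped, at 147, 141 and 147 against 149, 141 and 154 CPM (0.031 ± 0.047, edgeR adjusted p = 0.585). DARS shares 305 exonic bases with the antisense gene DARS-AS1.

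Of the other complex enzymes that fell, EPRS went from 621 ± 16.8 to 442 ± 9.79 CPM (OCI-AML2) and 690.3 ± 12.98 to 581 ± 11.3 CPM (MOLM-13). It changed by -0.49 ± 0.039 and -0.25 ± 0.033. IARS, the isoleucine enzyme, changed by -0.52 ± 0.042 and -0.29 ± 0.040, and KARS, the lysine enzyme, by -0.43 ± 0.041 and -0.22 ± 0.040. RARS, the arginine enzyme, was at -0.10 ± 0.057 in OCI-AML2 (edgeR adjusted p = 0.107) and fell by 0.19 on the log2 scale in MOLM-13, a call that upper quartile scaling ended (adjusted p = 0.0523). The cytosolic enzymes also fall into catalytic classes I and II, with unlike folds of the active site, and EPRS holds one of each. Of 9 class I enzymes, 6 fell and 2 rose in OCI-AML2 and 7 fell and 2 rose in MOLM-13, with medians of -0.51 and -0.53. Of 10 class II genes, 8 fell and 1 rose in OCI-AML2 and 9 fell and 0 rose in MOLM-13 (all genes: 31.8% lower in each line, 31.3% higher in OCI-AML2 and 31.8% higher in MOLM-13), with medians of -0.29 and -0.27.

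**Figure D2:**
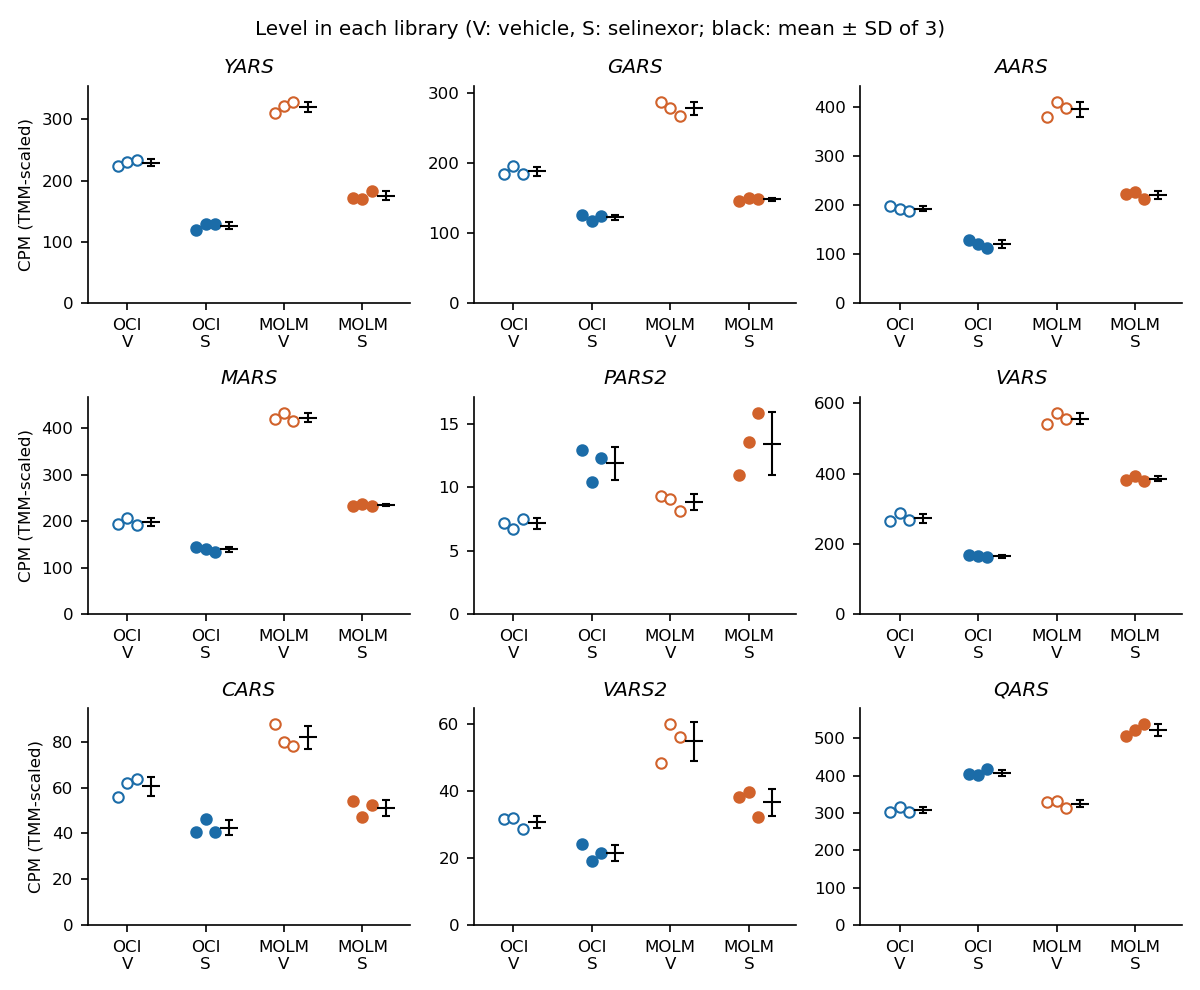
Level in CPM (vertical axis, from 0) of 9 synthetase transcripts in each of the 12 libraries, vehicle (open) and selinexor (filled) in OCI-AML2 (blue) and MOLM-13 (orange), with the mean ± SD of each group in black. The groups are separate in every panel; PARS2 and QARS are higher with selinexor and the other 7 are lower.

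Among the mitochondrial enzymes, PARS2 rose and VARS2 fell by the largest mean amounts. PARS2, the proline enzyme (chromosome 1, 54756898 to 54764514, minus strand), was scarce, with 70, 81 and 84 reads in the OCI-AML2 vehicle libraries and 110, 97 and 117 reads with selinexor. That was 7.21, 6.72 and 7.53 CPM against 12.98, 10.5 and 12.3 CPM. In MOLM-13, PARS2 was at 9.36, 9.08 and 8.17 CPM with vehicle and at 10.96, 13.6 and 15.9 CPM with selinexor. All selinexor values exceeded all vehicle values in both lines, with more spread in MOLM-13, at changes of 0.73 ± 0.15 and 0.60 ± 0.15 (edgeR adjusted p = 5.4e-05 and 3.7e-04). VARS2, the valine enzyme (chromosome 6, 30908242 to 30926459, plus strand), was at 31.6, 32.02 and 28.6 CPM with vehicle and 24.1, 19.2 and 21.3 CPM with selinexor in OCI-AML2. In MOLM-13 it was at 48.4, 59.97 and 56.01 CPM and 38.1, 39.6 and 32.1 CPM. It changed by -0.52 ± 0.097 and -0.58 ± 0.081 without overlap (edgeR adjusted p = 1.2e-05 and 7.6e-10), but it shares 1858 exonic bases with GTF2H4 on the same strand, so its reads are uncertain.

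LARS2, the leucine enzyme of mitochondria, went from 81.1 ± 2.09 to 50.5 ± 2.78 CPM (OCI-AML2) and 55.1 ± 1.81 to 46.3 ± 4.41 CPM (MOLM-13), changes of -0.69 ± 0.065 and -0.25 ± 0.074. MARS2, the methionine enzyme, fell in OCI-AML2 (-0.56 ± 0.082) and was at -0.023 ± 0.081 in MOLM-13 (edgeR adjusted p = 0.82). YARS2, the tyrosine enzyme, fell by a like amount in both lines, -0.27 ± 0.081 and -0.25 ± 0.080. EARS2 (glutamate) changed by -0.23 ± 0.071 and -0.21 ± 0.079, and AARS2 (alanine) by -0.19 ± 0.064 and -0.19 ± 0.061. These last calls did not hold without some libraries: EARS2 had an adjusted p of 0.0696 without OCI-AML2 vehicle library 1, and of 0.0793 and 0.159 without MOLM-13 vehicle library 1 and selinexor library 3. AARS2 had 0.053 without OCI-AML2 vehicle library 3 and 0.0934 without MOLM-13 vehicle library 2.

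The calls of TARS2 and IARS2 pointed in opposite directions in the lines. TARS2, the threonine enzyme, was at 43.8, 40.1 and 45.001 CPM with vehicle and 37.99, 35.2 and 35.5 CPM with selinexor in OCI-AML2, a change of -0.25 ± 0.078 without overlap. In MOLM-13, TARS2 was at 45.7, 55.5 and 48.3 CPM with vehicle and 60.8, 54.4 and 55.2 CPM with selinexor, where the groups overlapped and the change was 0.19 ± 0.073. IARS2, the isoleucine enzyme and the most abundant mitochondrial member, was at 425, 407 and 414 CPM with vehicle and 437, 450.4 and 458 CPM with selinexor in OCI-AML2 (0.11 ± 0.039). In MOLM-13 it was at 240.3, 232 and 231 CPM and 223, 218 and 219 CPM (-0.09 ± 0.040). The MOLM-13 rise of TARS2 was lost without vehicle library 1 (adjusted p = 0.161), vehicle library 3 (0.09) or selinexor library 1 (0.158). The MOLM-13 fall of IARS2 was lost without vehicle library 1, 2 or 3 (0.127, 0.06 and 0.0535) and without selinexor library 2 or 3 (0.0996 and 0.0582), and its OCI-AML2 rise without selinexor library 3 (0.0652).

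Of the remaining 7 mitochondrial genes, 1 was called in 1 line. RARS2, the arginine enzyme, fell in MOLM-13 (-0.21 ± 0.080) and was at -0.054 ± 0.086 in OCI-AML2, and the MOLM-13 call was lost without vehicle library 3 (adjusted p = 0.157) or selinexor library 3 (0.052). The log2 fold changes of CARS2, FARS2, HARS2, NARS2, SARS2 and WARS2 were -0.0011, -0.14, 0.11, -0.018, 0.27 and -0.12 in OCI-AML2, with standard errors of 0.063 to 0.37. In MOLM-13 they were -0.033, -0.22, 0.14, 0.027, 0.082 and -0.0017, with standard errors of 0.062 to 0.18. SARS2, the serine enzyme, was the least precise, with 45, 21 and 67 reads in the OCI-AML2 vehicle libraries. Without vehicle library 3 it was called higher in OCI-AML2 (adjusted p = 0.0486). It shares 1492 exonic bases with another annotated gene on the same strand and 349 with MRPS12 on the opposite strand, and HARS2 shares 437 with HARS. Exonic overlap on the opposite strand was also annotated for YARS (396 bases with S100PBP), EARS2 (370 with UBFD1), CARS2 (326 with ING1), WARS (287 with WDR25) and AARS2 (235 with TMEM151B), and none of their reads can be assigned by strand.

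Levels of different genes were compared per kilobase of exon, merged over the protein-coding transcripts of a gene. This length can exceed that of any single transcript, and the annotation used for counting is not known, so the ranks are approximate. In OCI-AML2 with vehicle, FARSA (168 ± 2.95 CPM per kb, mean ± SD, n = 3) ranked first, and KARS, EPRS, IARS2 and QARS followed at 126 ± 4.18, 124 ± 3.35, 117 ± 2.47 and 106 ± 2.65. KARS and EPRS did not differ beyond their spread. In MOLM-13 with vehicle, FARSA again ranked first (237 ± 11.1), ahead of MARS (146 ± 3.11) and EPRS (138 ± 2.59), and IARS2 ranked 12. The lowest levels were those of PARS2 (3.05 ± 0.174 and 3.78 ± 0.266 in the 2 lines) and SARS2 (1.86 ± 0.983 and 3.56 ± 0.439), which lay within their spread of each other in MOLM-13. With selinexor, QARS moved from rank 5 to rank 2 in OCI-AML2, at 141 ± 2.85 CPM per kb. In MOLM-13 it moved from rank 7 to rank 1, at 181 ± 5.45 beside 180.1 ± 8.95 for FARSA, a difference within their spread. YARS moved from rank 8 to rank 14 in OCI-AML2 and from rank 10 to rank 14 in MOLM-13.

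Summed over genes, the cytosolic enzymes held 4421 to 4554 CPM per library with vehicle and 3611 to 3678 CPM with selinexor in OCI-AML2, while in MOLM-13 they held 5888 to 5966 CPM against 4656 to 4743 CPM. The mitochondrial enzymes held 977 to 1009 CPM with vehicle and 940.2 to 949.9 CPM with selinexor in OCI-AML2, while in MOLM-13 they held 861 to 885 CPM against 794 to 824 CPM. Both sums were lower with selinexor without overlap, and their ratio went from 4.44 to 4.66 with vehicle to 3.83 to 3.90 with selinexor in OCI-AML2 and from 6.74 to 6.84 to 5.65 to 5.98 in MOLM-13. IARS2 alone held 407 to 425 CPM of the mitochondrial sum with vehicle in OCI-AML2, and 437 to 458 CPM with selinexor. In MOLM-13, IARS2 held 231 to 240 CPM with vehicle and 218 to 223 CPM with selinexor. The mitochondrial sum and the ratio therefore lean on this gene, and neither was computed without it. The 2 tables were scaled separately, so a level is not compared between lines.

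The balance of the cytosolic and the mitochondrial enzyme for the same amino acid was tested as the log2 ratio of their counts within a library, which no scaling affects (FARSA stands for phenylalanine, and EPRS for both glutamate and proline). Of 16 pairs, 9 shifted toward the mitochondrial enzyme and 1, leucine, toward the cytosolic enzyme (adjusted p under 0.05, exact two-sided permutation test within the lines, 400 arrangements, smallest possible p = 0.005, Benjamini-Hochberg over the 16 pairs). The share of such shifts among pairs of other genes was not computed. Single genes were called by edgeR for 63.1% of all genes in OCI-AML2 and 63.6% in MOLM-13, so shifted ratios may be common among other pairs too. Proline moved most: the log2 ratio of EPRS to PARS2 was 6.40, 6.57 and 6.33 with vehicle and 5.05, 5.39 and 5.19 with selinexor in OCI-AML2, while in MOLM-13 it was 6.22, 6.22 and 6.39 against 5.72, 5.39 and 5.22. Its change averaged over the lines was -1.03, without overlap in either line. The ratios for tyrosine (-0.60), cysteine (-0.58), alanine (-0.57), isoleucine (-0.41), histidine (-0.40) and asparagine (-0.31) also fell without overlap in both lines. Each of these 7 had an adjusted p of 0.01 by the exact permutation test. Histidine and asparagine shifted by almost the same amount in the lines (-0.40 and -0.40, -0.31 and -0.32). The 2 genes of the histidine pair share 437 exonic bases on opposite strands, and HARS2 shares 152 with ZMAT2 on the same strand. Reads of those stretches cannot be assigned by strand or gene, so the histidine ratio is less certain.

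Leucine went the other way. The log2 ratio of LARS to LARS2 was 1.48, 1.49 and 1.53 with vehicle and 2.21, 2.31 and 2.42 with selinexor in OCI-AML2. In MOLM-13 it was 2.42, 2.41 and 2.27 with vehicle and 2.61, 2.73 and 2.92 with selinexor. It rose by 0.60 on average, higher in 6 of 6 selinexor libraries than in any vehicle library of their line (exact permutation adjusted p = 0.01). Tryptophan (-0.47, adjusted p = 0.0178) and threonine (-0.31, adjusted p = 0.048) fell by the same exact permutation test, with separate groups only in MOLM-13. Threonine missed the threshold without any 1 of OCI-AML2 vehicle library 2 (0.088), OCI-AML2 selinexor library 1 (0.096), MOLM-13 vehicle library 1 (0.056) or MOLM-13 selinexor libraries 1, 2 and 3 (0.072, 0.064 and 0.0509). Methionine was at 0.045 in OCI-AML2, where MARS and MARS2 both fell, and at -0.83 in MOLM-13, where MARS alone was called (adjusted p = 0.131 over both lines, exact permutation test). Glutamate, valine, phenylalanine, arginine and serine were not called, and serine became called without OCI-AML2 vehicle library 3 (0.032) and glutamate without MOLM-13 selinexor library 3 (0.032). A line alone, with 3 libraries against 3, cannot go below a p of 0.1.

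**Figure D3:**
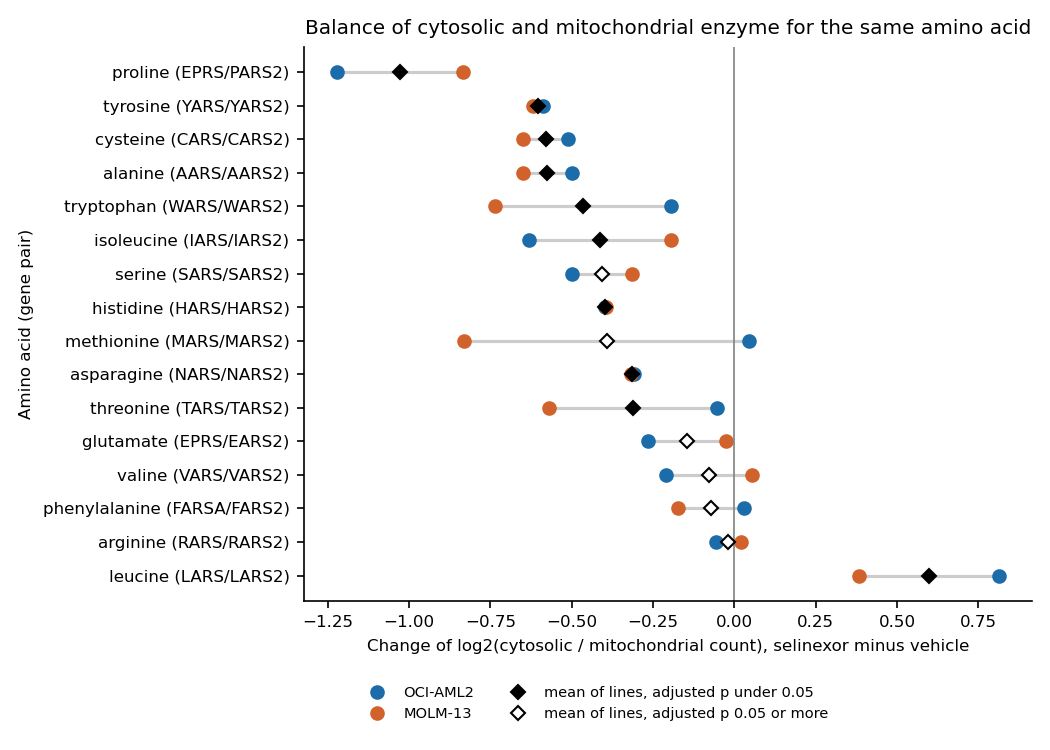
Change of the log2 ratio of cytosolic to mitochondrial counts with selinexor (horizontal axis) for 16 amino acids, in OCI-AML2 (blue), MOLM-13 (orange) and as the mean of the lines (diamonds, filled where the exact permutation adjusted p was under 0.05). Proline lies farthest left at -1.03, leucine is the pair with a called rise at 0.60, and methionine differs most between the lines, at 0.045 and -0.83.

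To compare the lines, the MOLM-13 change minus the OCI-AML2 change was tested as an interaction term over the 12 libraries, which were scaled together. The estimates therefore differ somewhat from a subtraction of the changes printed for each line, which was scaled alone. It was called for 15 of the 36 genes, 8 higher and 7 lower in MOLM-13, where 30.1% of all 12530 genes were called (11.1% higher and 19.0% lower). Over all genes the share of such calls that were lower was 63.2% with TMM scaling, 55.6% with DESeq2's size factors and 50.8% with upper quartile scaling. Falls were deeper in MOLM-13 for WARS (-0.48 ± 0.069), MARS (-0.39 ± 0.060), GARS (-0.33 ± 0.064) and FARSA (-0.33 ± 0.056), with edgeR adjusted p of 1.3e-08, 1.3e-07, 1.9e-05 and 1.4e-06. DARS, which rose in OCI-AML2, was lower in MOLM-13 by this measure (-0.42 ± 0.069, edgeR adjusted p = 8.9e-07). So was ARHGAP9, which overlaps MARS on the opposite strand (-0.26 ± 0.086, edgeR adjusted p = 0.0136). Its part in the MARS difference was not tested. In the other direction, the falls of EPRS, IARS, KARS and VARS were deeper in OCI-AML2, by 0.15 to 0.19, and the rise of QARS was larger in MOLM-13 by 0.22 ± 0.055.

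Among the mitochondrial genes, MARS2 (0.48 ± 0.12), LARS2 (0.39 ± 0.099) and TARS2 (0.38 ± 0.11) were higher in MOLM-13 relative to OCI-AML2, and IARS2 was lower (-0.25 ± 0.056), with edgeR adjusted p of 6.1e-04, 0.00122, 0.00403 and 2.2e-04. The difference for AARS (-0.21 ± 0.063) was lost without MOLM-13 vehicle library 2 (adjusted p = 0.324), OCI-AML2 vehicle library 1, 2 or 3 (0.113, 0.161 and 0.235) or OCI-AML2 selinexor library 1 (0.0519). That of IARS was lost without OCI-AML2 selinexor library 2 (0.0784) or MOLM-13 selinexor library 3 (0.0547). KARS lost it without OCI-AML2 selinexor library 2 (0.065), MOLM-13 vehicle library 3 (0.0692) or MOLM-13 selinexor library 1 (0.0701), and VARS without OCI-AML2 selinexor library 2 or 3 (0.0666 and 0.0841), MOLM-13 vehicle library 1 or 3 (0.0883 and 0.0613) or MOLM-13 selinexor library 2 (0.0808). YARS, NARS and HARS showed no called difference between the lines (-0.062 ± 0.062, -0.0063 ± 0.060 and -0.025 ± 0.082).

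Genes that work beside the synthetases were then described from lists of the same machinery. Of the 3 scaffold proteins of the complex, AIMP1 was not called in either line (0.076 ± 0.065 in OCI-AML2 and -0.086 ± 0.060 in MOLM-13). AIMP2 fell in both (-0.20 ± 0.068 and -0.41 ± 0.057). EEF1E1, also called AIMP3, rose in OCI-AML2 from 10.4 ± 2.15 to 15.2 ± 1.45 CPM (0.57 ± 0.14) and fell in MOLM-13 from 22.3 ± 0.791 to 13.2 ± 1.66 CPM (-0.77 ± 0.12). Mitochondria lack a glutaminyl-tRNA synthetase of their own and make glutaminyl-tRNA with an amidotransferase. Of its subunits, QRSL1 and GATC fell and GATB rose in OCI-AML2 (-0.38 ± 0.067, -0.39 ± 0.054 and 0.31 ± 0.074), while GATC alone was called, lower, in MOLM-13 (-0.22 ± 0.044). MTFMT, which formylates the initiator methionyl-tRNA of mitochondria, was at 0.091 ± 0.11 and -0.052 ± 0.14, not called.

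Other aminoacylation genes were mixed. TARSL2, a second cytosolic threonine enzyme, rose in both lines, from 16.6 ± 0.95 to 20.9 ± 0.886 CPM (OCI-AML2) and 5.44 ± 1.14 to 13.5 ± 1.32 CPM (MOLM-13) (0.33 ± 0.11 and 1.31 ± 0.17), while TARS fell. DTD1, which removes D-amino acids from tRNA, fell in both (-0.44 ± 0.11 and -0.47 ± 0.11). SEPSECS, which makes selenocysteinyl-tRNA, rose in MOLM-13 (0.35 ± 0.11) and was at 0.33 ± 0.17 in OCI-AML2, and PSTK, the kinase before it, was at -0.10 ± 0.15 and -0.0098 ± 0.13. AARSD1, an editing protein, was tested in MOLM-13 alone, where it was scarce, from 0.767 ± 0.512 to 1.95 ± 1.21 CPM (1.37 ± 0.45).

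Of 15 genes of tRNA maturation and export, 9 fell and 0 rose in OCI-AML2, and 10 fell and 3 (TSEN34 and ADAT2 among them) rose in MOLM-13, with medians of -0.32 and -0.37, where 31.8% of all genes fell in each line and 31.3% and 31.8% rose. XPOT, the export receptor of tRNA, fell from 307 ± 13.9 to 245 ± 7.10 CPM (OCI-AML2) and 580.1 ± 12.4 to 441 ± 11.2 CPM (MOLM-13) (-0.32 ± 0.042 and -0.39 ± 0.034). TRNT1, which adds the CCA end, was at -0.11 ± 0.10 in OCI-AML2, not called, and fell in MOLM-13 (-0.40 ± 0.080). ELAC2, which trims the 3′ end of tRNA precursors, fell in both (-0.67 ± 0.050 and -0.37 ± 0.049). Of the factors that deliver charged tRNA to the cytosolic ribosome, EEF1A1 and EEF1B2 rose in both lines (0.38 ± 0.037 and 0.25 ± 0.038 in OCI-AML2, 0.54 ± 0.024 and 0.38 ± 0.030 in MOLM-13), opposite to most synthetases. EEF1D was at -0.062 ± 0.044 in OCI-AML2, not called, and fell in MOLM-13 (-0.15 ± 0.035), and EEF1G was not tested.

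On the mitochondrial side, 76 ribosomal protein genes were tested: 45 fell and 7 rose in OCI-AML2, and 54 fell and 5 (MRPL33, MRPL45, MRPS25, MRPS30, MRPS33) rose in MOLM-13, against 31.8% of all genes lower in each line and 31.3% and 31.8% higher. Their medians, -0.25 and -0.33, lay below those of the mitochondrial synthetases. Of 8 tested mitochondrial translation factors, 5 (TUFM, GFM1, MTIF2, MTRF1, MTRF1L) fell in OCI-AML2, and 3 (TUFM, GFM1, MTIF3) fell and 2 (GFM2, MRRF) rose in MOLM-13, the MOLM-13 counts being near those shares. TUFM, the mitochondrial elongation factor that carries charged tRNA, changed by -0.27 ± 0.039 and -0.28 ± 0.037, and GFM1, the elongation factor of translocation, by -1.25 ± 0.057 and -0.70 ± 0.059. TSFM was not tested.

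Of the regulators and targets of the amino acid response, 5 of 11 tested genes (ATF4, TRIB3, PSAT1, PHGDH, ATF5) fell and 1 (EIF2AK4) rose in OCI-AML2, and 8 of 12 fell and 1 (EIF2AK4) rose in MOLM-13, beside 31.8% lower in each line and 31.3% and 31.8% higher over all genes. The medians were -0.41 and -0.41. EIF2AK4 encodes GCN2, the kinase that senses uncharged tRNA, and went from 57.5 ± 2.86 to 68.2 ± 5.01 CPM (OCI-AML2) and 17.97 ± 2.44 to 31.2 ± 2.24 CPM (MOLM-13) (0.25 ± 0.067 and 0.80 ± 0.10). DDIT3 was at -0.14 ± 0.12 in OCI-AML2, not called, and fell in MOLM-13 (-0.32 ± 0.10). Since WARS is known as an interferon gamma target, genes of that response were set beside it: of 5 tested out of 11, 4 rose in OCI-AML2 (IRF1, CIITA and TAP1 among them) and 3 in MOLM-13 (TAP1 and PSMB9 among them), and 0 fell in either, where 31.3% and 31.8% of all genes rose. WARS fell in both. IRF1 changed by 0.31 ± 0.13 in OCI-AML2 and was at 0.19 ± 0.096 in MOLM-13, not called, and GBP1, GBP2, GBP4, GBP5, IDO1 and CXCL10 were not tested. The genes named by a count of 5 or fewer in these lists were chosen after their values were seen.

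**Figure D4:**
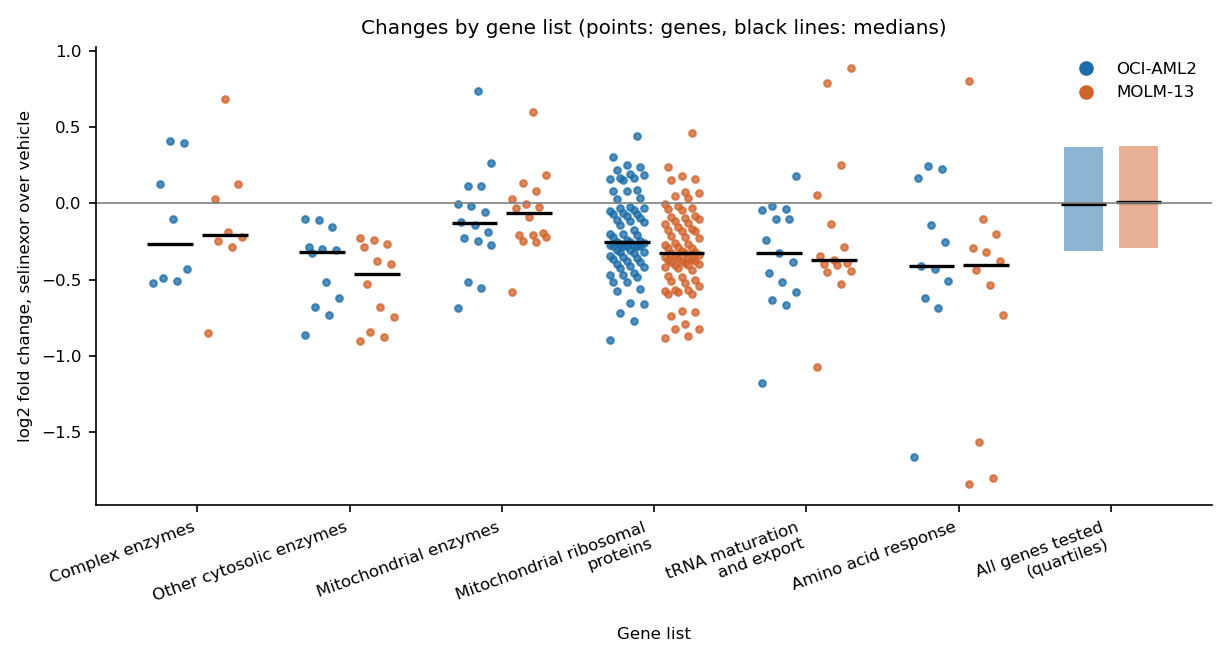
Log2 fold change (vertical axis) of each tested gene of 6 lists in OCI-AML2 (blue) and MOLM-13 (orange), with list medians as black lines, and the median and quartiles of all tested genes at the right. The medians of the cytosolic enzymes outside the complex are -0.32 and -0.46, those of the mitochondrial enzymes -0.13 and -0.061, and those of all genes -0.0016 and 0.0091.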

How the data were processed

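Polyadenylated RNA of 12 libraries (3 for each of 4 groups) was prepared without strand information, per the labels' protocols. The submitters' processing notes name STAR, the build hg38, R 3.6.1 and DESeq2, and what counted the reads, over which annotation, is not given in the sources used here. For each line the authors deposited whole-number counts per gene symbol, which were used here. Their normalized tables and their table of comparisons were not used. Columns carry a treatment letter and no replicate number, so a library number is its place in the table and nothing more. All sample columns were matched to a group.

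From the counts, each line was fitted alone with edgeR 4.0.16 in R 4.3.3 (TMM, filterByExpr with minimum count 10 and minimum total 15, robust quasi-likelihood F test, Benjamini-Hochberg over all genes, threshold 0.05), and the difference between lines as an interaction over 12 libraries. Ratios used the counts plus 0.5 and an exact permutation test within lines. Alternatives were DESeq2 1.42.0, its size factors in edgeR, scaling by the upper quartile, keeping all genes with low counts, voom in limma 3.58.1, a joint fit, a prior count of 5 and leaving out each library. The procedure was tested on simulated counts. Positions, lengths and overlaps come from GENCODE 29 on GRCh38, and promoters from RefSeq.

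All 36 genes are reported. The 8 with the largest absolute log2 fold change averaged over the lines have values per library, and others with such values were added after seeing them. Every member of lists of up to 6 genes is named and the first 3 of longer lists, except for some genes that are not reported here. The members and lists were chosen with earlier results of these data known.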

Additional observations from a re-analysis of the deposited data

Results flagged for a closer look

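For 15 of the 36 genes the selinexor effect differed between the lines by edgeR's quasi-likelihood test of the interaction (adjusted p under 0.05), at different doses, so that line and dose cannot be told apart. Of these, 8 were higher and 7 lower in MOLM-13. Over all 12530 genes, 30.1% were called by the same test, 11.1% higher and 19% lower. The values are the MOLM-13 effect minus the OCI-AML2 effect on the log2 scale, estimated with the 12 libraries scaled together, so they differ somewhat from a subtraction of the changes printed for each line. Among cytosolic genes they were -0.48 for WARS, -0.42 for DARS, -0.39 for MARS, -0.33 for GARS, -0.33 for FARSA, -0.21 for AARS, 0.15 for VARS, 0.16 for KARS, 0.19 for IARS, 0.19 for EPRS and 0.22 for QARS. Among mitochondrial genes they were -0.25 for IARS2, 0.38 for TARS2, 0.39 for LARS2 and 0.48 for MARS2. The calls of AARS, IARS, KARS and VARS were each lost under some alternatives. TARS2 and IARS2 also had calls of opposite direction in the lines, and WARS and MARS2 had the largest differences in each direction.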

How the results depend on the processing

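Across the alternatives, 21 of 27 calls in OCI-AML2, 22 of 28 in MOLM-13, 11 of 15 differences between the lines and 9 of 10 ratios kept their direction and side of the threshold. This count leaves out the ratios of a line taken alone, which are given below. No called value changed sign. With upper quartile scaling 3 mitochondrial genes fell in MOLM-13, and with DESeq2 4 fell and 1 rose, in place of 7 and 2, and the cause was not tested. The median log2 fold change over all genes was 0.053 in OCI-AML2 and 0.079 in MOLM-13 with upper quartile scaling, against -0.0016 and 0.0091 with TMM. Upper quartile scaling ended the calls of FARSA, FARSB and AARS2 in OCI-AML2 and of AARS2, EARS2, IARS2, RARS and RARS2 in MOLM-13 (adjusted p 0.0523 to 0.682) and added HARS2 there (0.0335). DESeq2 ended those of EARS2, IARS2, RARS2 and TARS2 in MOLM-13 (0.0554 to 0.0826). The difference between the lines was lost for AARS with each of these (0.0548 and 0.0541) and for KARS with no filter (0.0514), and was gained for SARS and TARS without single libraries (0.0322 to 0.0491). Leaving out 1 library gave 4 to 7 falls and 1 to 2 rises of mitochondrial genes in MOLM-13, 1 to 3 rises of mitochondrial genes in OCI-AML2, 2 to 5 cytosolic genes higher in the difference between the lines, and 8 to 10 ratios lower. Over all genes it gave 1228 to 2084 higher and 1450 to 2236 lower calls of that difference, against 1388 and 2380 with all libraries; the higher calls numbered 2084 without OCI-AML2 vehicle library 2 and the lower calls 1542 without OCI-AML2 vehicle library 1 and 1450 without MOLM-13 vehicle library 2. With OCI-AML2 alone or MOLM-13 alone, 0 ratios were called in either direction, since 3 libraries against 3 cannot go below 0.1. Of 644 values called in neither setting, 106 had another sign, and no direction is claimed for them. No paired analysis was possible because the columns carry no replicate numbers. Depth limited the scarce genes: SARS2 had as few as 21 reads in a library, and SARS2 and PARS2 had the largest standard errors in both lines.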
